A study of Homo sapiens with 2 samples.

Results

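The 500 bp broad regions are the rows of smallest width in a list of broad HMGB2-bound regions. They were chosen by width alone, as every row whose end minus start equals 500 bp, and they number 311 of 364 broad regions (85.4%, exact Clopper-Pearson binomial 95% interval 81.4 to 88.9). The list came from chromatin immunoprecipitation and sequencing of HMGB2 in IMR90 cells, a line of human lung fibroblasts, with 1 library from RAS-infected senescent cells and 1 from the growing control. Both were collected at day 2 with the same rabbit antibody, in cultures kept at 2% oxygen, from 10 ng of precipitated DNA each. The form of RAS, its promoter and its vector were not given in the sources used here. Both lists are named senescent before growing, and the regions are read here as higher in senescent cells on that ground only. No score, fold or read count is attached to any region, so depth and effect size are unknown, and with 1 library a condition nothing has a replicate check. Every count below is a description of 2 lists called on the same 2 libraries, and no test was run.

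HMGB2 is an abundant chromatin protein whose HMG boxes bind the minor groove of DNA with little sequence preference and bend it. In fibroblasts driven into senescence by RAS, a stable arrest of proliferation is joined by secretion of cytokines, chemokines and proteases, the senescence-associated secretory phenotype (SASP). A ChIP region is a stretch where sequenced fragments pile up above a threshold. Broad callers usually join neighbouring stretches, so that width can follow how far the pile-up extends.

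No region had a width between 500 and 626 bp. The values just above the members were 626, 628 and 636 bp, the widest region had 6140 bp, and the 53 regions wider than 500 bp (wide regions) had a median of 1048 bp. The members covered 155.5 kb, which is 66.2% of the length of the broad list. Narrow regions, listed in a second file, all had 264 bp and numbered 2792.

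The members stood low in the deposited order. The first 31 rows were all wide, the first member stood at place 32, and the last wide region at place 76. Only 23 members stood before that last wide region, and 288 came after it. What the order means was not given in the sources used here, but the file shows its form. The 364 rows fell into 55 runs, in each of which the rows ascended by chromosome name and then by start. The first 42 runs held 117 rows, with at most 10 in a run. From place 118 to place 352 the runs held 14 to 46 rows each, 10 runs with 235 members and no wide region. Within a run the order is that of position, so these 235 of the 311 members have no other order among themselves than by run.

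**Figure D1:**
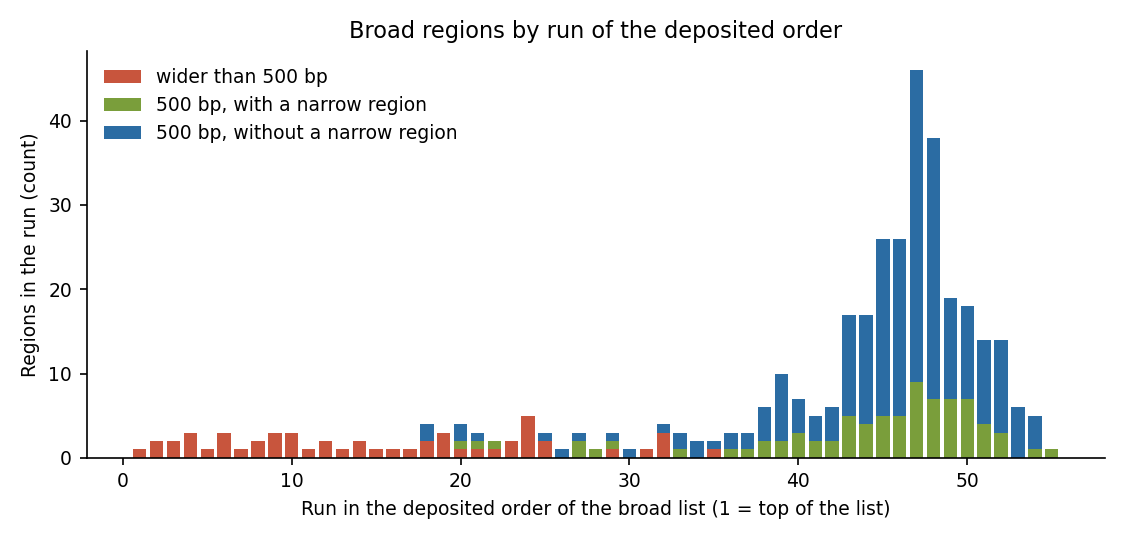
Number of broad regions in each run of the deposited order, from run 1 at the top of the list to run 55; red is wide, green is 500 bp with a narrow region inside, blue is 500 bp without one. Wide regions fill the short runs at the top, and the members fill the long runs, of which the longest holds 46.

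Among the 23 members that stood before the last wide region, 3 lay within 6.99 kb of each other in 11q13.1, at chr11:65195642-65196142 (place 32), chr11:65197341-65197841 (place 38) and chr11:65190856-65191356 (place 42). The first of these stood highest of all members, and the nearest wide region lay 37.5 Mb away. None held a narrow region, and the nearest one lay 8979 bp from the member at place 42. Band 11q13.1 held 4 members in all, and it holds 99 protein-coding genes, among them those of RELA, the transactivating subunit of NF-kB, and FOSL1, an AP-1 subunit. It also holds the genes of NEAT1 and MALAT1, abundant long non-coding RNAs of the nucleus, which were picked after the group was seen. Genes were joined to regions by the name of the chromosome band, without an hg19 annotation, so here and below a gene in the band of a region need not lie at it.

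Most members lay far from any wide region. Of the 311, 7 lay within 10 kb of a wide region, edge to edge, 11 within 100 kb (3.54%), 17 within 500 kb and 19 within 1 Mb (6.11%). The nearest stood 1092 bp away, so none adjoined one. The 113 members on chromosomes 3, 5, 7, 9, 15, 18 and X had no wide region on their chromosome, and for the other 198 the median distance was 27.9 Mb (quartiles 7.38 and 46.6 Mb). Narrow regions, the only other list, had a median of 26.8 Mb to the nearest wide region over the 1798 that could be measured. Of all 2792 narrow regions, 0.824% lay within 10 kb and 1.25% within 100 kb of a wide region, against 2.25% and 3.54% of the members. Wide regions were closer to their own kind, with 17 of 53 within 10 kb of another (32.1%) and 24 within 100 kb (45.3%).

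The 11 members within 100 kb of a wide region fell at 6 places. In 20q13.13, the band of CEBPB, a C/EBP transcription factor of inflammatory and SASP genes, 4 members flanked wide regions. They lay at chr20:49198480-49198980, chr20:49208677-49209177, chr20:49213116-49213616 and chr20:49270870-49271370, at 1712, 2203, 1092 and 17938 bp from the nearest wide region. Those wide regions had 704, 644 and 764 bp, the middle one being the nearest to 2 of the members. The remaining member of this band, at chr20:48808192-48808692, stood 387 kb from them. Which of the 5 members lies nearest to CEBPB cannot be told from the band. Band 20q13.13 held the most members of all bands, and none of its 5 held a narrow region. PTPN1, a tyrosine phosphatase gene, lies in the same band and was picked after the group was seen.

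In 22q12.2, the band of LIF, an interleukin 6 family cytokine, 2 members at chr22:30640376-30640876 and chr22:30642258-30642758 lay 1780 and 3662 bp from a wide region of 1348 bp. In 8p12, the band of the growth factor gene NRG1 and of DUSP4, a phosphatase of MAP kinases, members at chr8:32409798-32410298 and chr8:32477300-32477800 lay 3.28 and 70.8 kb from a wide region of 628 bp. In 13q31.1, the band of SPRY2, which restrains growth factor receptor signalling, the member at chr13:80906916-80907416 lay 6581 bp from a wide region of 834 bp. In 8p21.2, the band of the secreted glycoprotein gene STC1, a member at chr8:23648151-23648651 lay 27.4 kb from one of 760 bp. In 4q13.3, the band of CXCL8, CXCL1 and other neutrophil chemokine genes, the member at chr4:74526471-74526971 lay 79.8 kb from a wide region of 3788 bp. Only the members of 13q31.1 and 4q13.3 held a narrow region (2 of 11).

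Some members lay in groups. Within 10 kb of another member lay 16 of 311 (5.14%, 2.97 to 8.22), in 7 groups: 5 pairs and 2 triples. Within 100 kb lay 32 (10.3%, 7.15 to 14.2). Among the more numerous narrow regions, 64 of 2792 (2.29%) lay within 10 kb of another narrow region and 614 within 100 kb. The 32 members lay in 14 groups on 12 chromosomes: 11 pairs, 2 triples and a group of 4 in 20q13.13. The distance to the nearest other member had a median of 2.78 Mb (quartiles 0.758 and 6.29 Mb). Members did not touch each other: the closest pair stood 502 bp apart, or 1002 bp from centre to centre, and 3 pairs stood within 1 kb.

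On chromosomes 5 and 7, which had no wide region, there were 3 of these groups. The pair at chr7:22770851-22771351 and chr7:22772100-22772600, 749 bp apart, lay in 7p15.3, the band of IL6, a central SASP cytokine. The pair at chr5:137801474-137801974 and chr5:137805250-137805750, 3.28 kb apart, lay in 5q31.2, the band of EGR1, an immediate early transcription factor gene, and of STING1, a sensor adaptor of cytosolic DNA signalling. The nearest narrow region stood 2199.8 kb away. Band 5q35.3, which holds SQSTM1, an autophagy receptor gene, had 3 members between chr5:179249067 and chr5:179268257, within 19.2 kb.

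The pair in 2q23.3, at chr2:151322565-151323065 and chr2:151339607-151340107, stood at places 34 and 57. That band holds TNFAIP6, a secreted hyaluronan-binding protein gene, and RND3, a small GTPase gene. The pair in 15q25.1, at chr15:81071811-81072311 and chr15:81161328-81161828, stood at places 72 and 104 in the band of CEMIP, a gene of hyaluronan breakdown. RND3 and CEMIP were picked after the groups were seen. The pair in 19q13.33 lay at chr19:50359163-50359663 and chr19:50360165-50360665. The remaining groups within 100 kb were pairs in 10q26.13, 14q12, 16q22.1, 8p12 and 8q24.23, which spanned 18.3 to 82 kb.

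**Figure D2:**
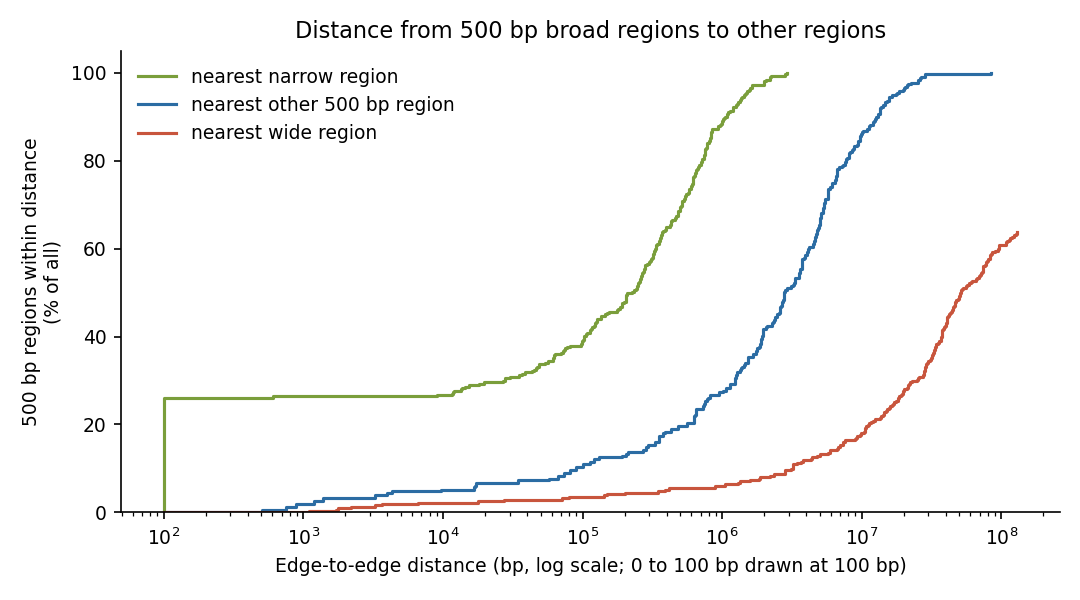
Cumulative share of the 311 members by edge-to-edge distance to the nearest narrow region, the nearest other member and the nearest wide region, on a log scale. The narrow curve starts at 25.4%, stays flat to 10 kb, and rises after that; the wide curve ends at 198 members because 113 have no wide region on their chromosome.

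A narrow region lay inside 79 of the 311 members (25.4%, 20.7 to 30.6), and 232 had none. Over all broad regions the share was 27.5% (100 of 364), and over wide regions 39.6% (21 of 53, 26.5 to 54.0), whose interval overlaps that of the members. All 79 members held exactly 1 narrow region, whole, and in 78 of them both had the same centre to the base. The exception was chr7:22497966-22498466 in 7p15.3, where the centres stood 65 bp apart. Of the 21 wide regions with a narrow region, 7 shared a centre with it, the median offset was 143 bp, and the largest was 2400 bp, in the region of 6140 bp.

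Between touching and remote there was almost nothing. A narrow region stood outside but within 10 kb for 4 members, at 40 bp (chr19:59074108-59074608), 63 bp (chr18:30445763-30446263), 607 bp (chr20:30193712-30194212) and 8979 bp (the member at place 42). For the other 228 it lay over 10 kb away, and over the 232 without one the median distance was 365 kb.

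The narrow regions inside members came from the upper part of the narrow list. That list also fell into runs, 41 in all, of which 20 held 14 or more rows and 2715 of the 2792 regions. Of the first 18 narrow regions, 15 touched a wide region and none a member. The first inside a member stood at place 19 (chr14:68141224-68141724, in 14q24.1) and the next at place 20 (chr6:31763390-31763890, in 6p21.33, the band of the heat shock gene HSPA1A and of IER3). Of the first 279 narrow regions, 48 lay in a member (17.2%), and of the other 2513, 31 did (1.23%). The last one stood in run 33. None of the 1164 regions in the 8 runs after it lay in a member, where a count of 0 allows a share of up to 0.258%.

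The share of members with a narrow region was similar along the broad list, with overlapping intervals. It was 32.8% among the 64 members before the first long run (21.6 to 45.7) and 23.5% among the 247 from that run on (18.3 to 29.3), and it ranged from 18.4 to 38.9% over the 10 long runs. It was low among members near each other: 0 of the 16 within 10 kb of another (an upper limit of 18.8% from a count of 0), and 2 of the 32 within 100 kb (6.25%, 0.766 to 20.8), in 16q22.1 and 8q24.23. Among the 279 members with no other within 100 kb it was 27.6% (22.4 to 33.2). These intervals do not overlap, but they cover counting error only and neighbours are not independent counts.

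Standing alone was the common case. With no wide region and no other member within 100 kb were 276 members (88.7%), and 171 of all 311 (55.0%) also had no narrow region within that distance.

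Members lay on 23 chromosomes, at 0.100 per Mb of hg19 (exact Poisson 95% interval 0.0896 to 0.112). Chromosome 5, which has no wide region, held the most (24). By length, chromosome 20 was the densest, at 0.190 per Mb (12 members, 0.0984 to 0.333), followed by chromosome 15 at 0.166 (17 members, 0.0966 to 0.265). Their intervals overlap each other and hold the genome value, so the order is not settled, and without centromere, variable and stalk bands chromosome 15 led with 0.208 per Mb. The interval lay below the genome value on 2 chromosomes. Chromosome 12 had 5 members at 0.0374 per Mb (0.0121 to 0.0872) beside 5 wide regions. Chromosome Y had none, which allows up to 0.0505 per Mb, and it had 1 narrow region. Whether these cells carry a Y chromosome was not examined, so the 0 on Y is not read as a result. The genome value counts the length of Y. On chromosome 19, where wide regions were densest (7), there were 8 members at 0.135 per Mb (0.0584 to 0.267).

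**Figure D3:**
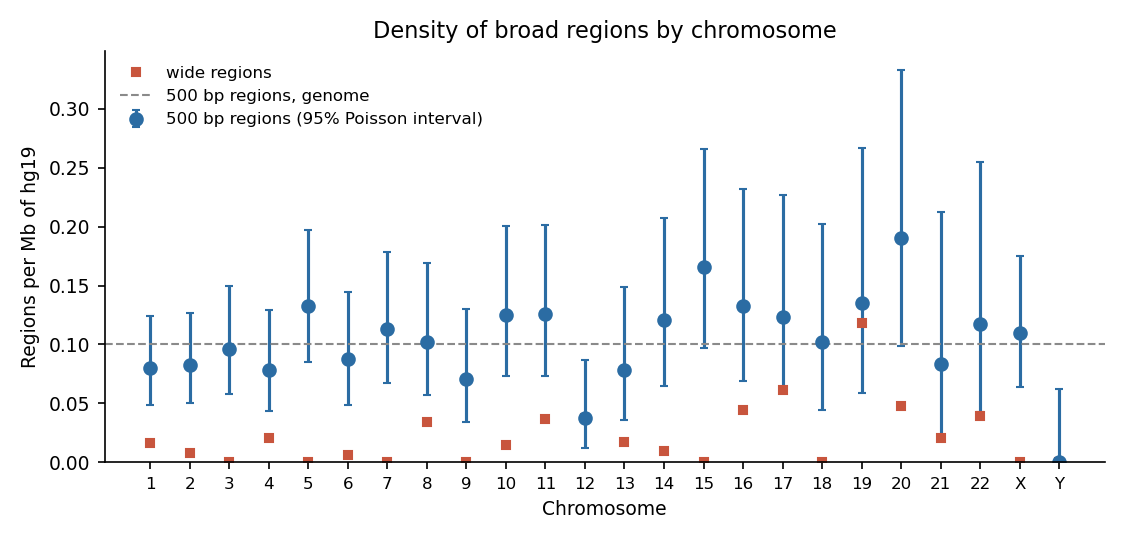
Members per Mb of hg19 on each chromosome (blue, exact Poisson 95% interval), wide regions per Mb (red) and the genome value of the members (dashed line, 0.100). Chromosomes 12 and Y lie below the line with their whole interval, and no chromosome lies above it. Whether these cells carry a Y chromosome was not examined.

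By Giemsa stain, the intervals of the members held the genome share in dark and in light bands. Dark bands, rich in A and T and poor in genes, held 29.9% of the members (93 of 311, 24.9 to 35.3) and 29.2% of the hg19 length. The same bands held 17.0% of the wide regions (8.07 to 29.8) and 1116 of the 2792 narrow regions (38.1 to 41.8%). Light bands, where genes are more frequent, held 45.0% of the members (39.4 to 50.7), 66.0% of the wide regions (51.7 to 78.5), 40.2% of the narrow regions and 42.2% of the length. Of the 79 members with a narrow region, 30 lay in dark bands (27.3 to 49.6%), and of those without one 27.2% did (21.5 to 33.4), and these intervals overlap. Centromere, variable and stalk bands held 3 members, in 21p11.2, 3q11.2 and 12p11.1. That is 0.965% of the members (0.199 to 2.79), below the 8.29% of the hg19 length in these bands. The same bands held 1.89% of the wide regions (0.0478 to 10.1) and 1.68% of the narrow regions. Mappable length was not measured.

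Counted over the whole length of the bands, members became denser with the number of genes in the band. Per Mb there were 0.0492 members in bands of 0 to 3 protein-coding genes (0.0282 to 0.0800), 0.0765 with 4 to 10 (0.0547 to 0.104), 0.0960 with 11 to 25 (0.0788 to 0.116), 0.134 with 26 to 50 (0.108 to 0.164) and 0.127 above 50 (0.0956 to 0.164). The last 2 intervals overlap almost wholly. Wide regions numbered 0 in the first of these classes and reached 0.0520 per Mb in the last (0.0329 to 0.0780), against 0.0147 in the class before. Narrow regions, like the members, were thinnest in bands of 0 to 3 genes (0.576 per Mb), but they were densest with 4 to 10 genes (1.07) and thinner with more genes (0.786 above 50). Band lengths include centromere, variable and stalk bands, which make up 8.29% of the hg19 length. The class of 0 to 3 genes (324.9 Mb) takes in Yq12 (30.6 Mb) and 1q12 (13.7 Mb), with no protein-coding gene and no member. How far the low densities of this class rest on such length was not tested. Mappable length, which could differ between these classes, was not measured.

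**Figure D4:**
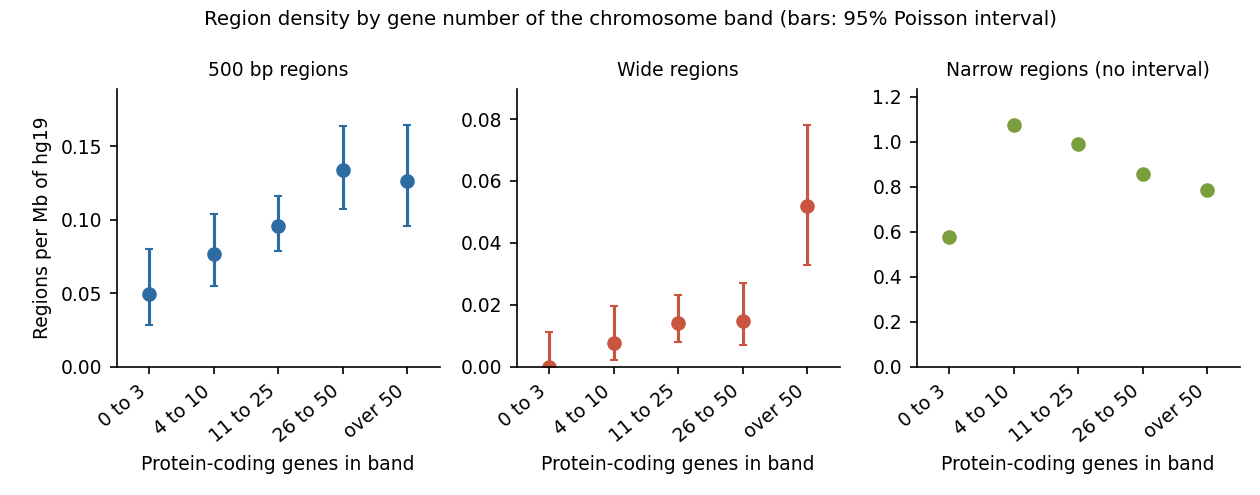
Regions per Mb of hg19 in bands grouped by number of protein-coding genes, for members (left), wide regions (middle) and narrow regions (right), with exact Poisson 95% intervals for the first 2. Band lengths include centromere, variable and stalk bands. Members rise from 0.0492 to 0.134 and level off, wide regions are highest in bands of more than 50 genes, and narrow regions, lowest in the first class (0.576), are highest in the class of 4 to 10 genes (1.07).

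The members were spread over 237 of the 862 chromosome bands (27.5%), of which 183 held 1 member, 41 held 2 and 13 held 3 or more. Of these bands, 16 also held a wide region, with 27 members (8.68%), while the 34 bands with a wide region make up 4.46% of the hg19 length. Bands with a member had a median of 23 protein-coding genes, bands with a wide region 46, and all bands 15. Because members reach so many bands, 36.7% of all protein-coding genes lie in a band with a member and 31.2% in one with a member and no wide region, whereas 10.3% lie in a band with a wide region. Counts over gene lists are read against these shares, and the lists were composed with earlier results of these data known.

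Bands with a member took in 27 of the 56 SASP genes (48.2%), and bands with a wide region 25 (44.6%). Of these 27, 13 lay in bands with no wide region (23.2% of the list, against 31.2% of all genes). With genes in bands with a wide region left out of both, the direction turns: the 13 are then 41.9% of 31 SASP genes, against 34.8% of all such genes. The 27 include 8 chemokine and growth factor genes of the single band 4q13.3, so the list held 19 bands with a member, of 38. The same 8 are among the 25 by wide regions, as are MMP1, MMP3, MMP10, MMP12 and MMP13, which share 11q22.2. Among these 13 were the genes of the cytokines and growth factors IL6, CSF2, VEGFA, HGF, FGF2, INHBA and BMP2, the chemokines CXCL10, CXCL11 and CCL20, the protease inhibitor TIMP1, and TNFAIP6. The band of IL6 held 3 members, those of TIMP1 and TNFAIP6 2 each, and the others 1. For VEGFA the band holds 89 protein-coding genes, so the join says little of it, while those of HGF and FGF2 hold 11 each. The bands of TIMP1, IRAK1, RBL2 and SQSTM1 differ in length between the builds by over 100 kb, which makes their pairing uncertain. The same holds for 2q14.1, the band of IL1A and IL1B, which held neither kind of region. It adjoins 2q13, which holds the widest region of all and also differs in length. IL1A and IL1B are thus among the 31 SASP genes counted outside bands with a wide region, which may be wrong.

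Of the 24 RAS-ERK feedback and early response genes, 10 lay in a band with a member (41.7%, against 36.7% of all protein-coding genes). In bands without a wide region lay 7 of them (29.2% of the list, against 31.2%), so both shares were near those of all genes. The 7 were NRAS, SPRY1, SPRED1, EGR1, MYC, EPHA2 and KLF6. EGR1 had 2 members in its band and the others 1. KLF6, an early response transcription factor gene, was placed in 10p15.2 by its GRCh38 position. That band is 0.8 Mb long, holds 5 protein-coding genes and had its member at chr10:3403900-3404400. Whether KLF6 falls in the same band of hg19 was not examined. That of MYC, the growth-promoting transcription factor gene, holds 6, with the member at chr8:127339037-127339537. SPRY1, an inhibitor of the same pathway as SPRY2, shares 4q28.1 with FGF2 and thus the same member.

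Of the 25 NF-kB, C/EBP and AP-1 regulators, 8 lay in a band with a member (32.0%), near the share of all genes. Among those without a wide region were NFKB2 and RELA (NF-kB subunits), FOS, FOSL1 and JUN (AP-1 subunits) and IRAK1 (an interleukin 1 receptor kinase). The band of JUN holds 8 protein-coding genes, and its member at chr1:60248233-60248733 held a narrow region.

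The share was highest for the 16 arrest and tumour suppressor genes, with 11 in a band with a member (68.8%, against 36.7% of all protein-coding genes). This difference was not tested. Among them were CDKN1B, CDKN2A and CDKN2B (inhibitors of cyclin-dependent kinases), RB1, RBL2, PML, GADD45A, GADD45B and BTG2. CDKN2A and CDKN2B share 9p21.3 and its 2 members, so the 11 genes stood in 10 bands of 15. The bands of GADD45B and BTG2 hold 244 and 107 protein-coding genes. CDKN1A, the p21 gene, lay in a band with neither kind of region. Among the other lists, interferon response genes stood at 8 of 17 (47.1%), glycolysis and stress genes at 9 of 19 (47.4%), cell cycle and replication genes at 9 of 25 (36.0%), fibroblast and matrix genes at 9 of 26 (34.6%) and HMGB and chromatin factors at 6 of 20 (30.0%). The control lists stood at 7 of 15 housekeeping genes (46.7%) and 5 of 16 long neuronal genes (31.3%), and markers of epithelial, endothelial and blood cells at 5 of 13 (38.5%). The share of housekeeping genes lies close to that of the SASP, interferon and glycolysis lists. By wide regions the same SASP list stood at 44.6% against 13.3% of housekeeping genes. Because the lists were composed with earlier results of these data known, and SASP genes share bands, this contrast is not read as a result.

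**Figure D5:**
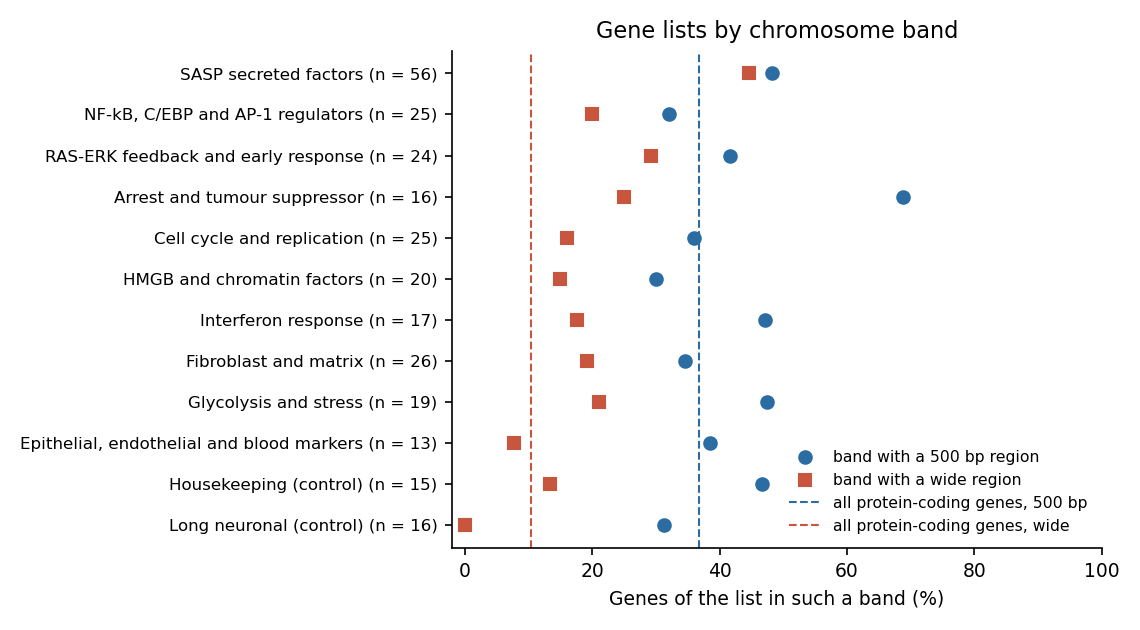
Share of each gene list in bands with a member (blue) and with a wide region (red), with the shares of all protein-coding genes as dashed lines (36.7 and 10.3%). By members most lists, controls included, lie between 30 and 50%, with the arrest list at 68.8%, whereas by wide regions the SASP list stands at 44.6% and the long neuronal list at 0. The lists were composed with earlier results of these data known, and genes of a list can share a band.

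Bands with few genes leave the fewest genes to choose from. The gene nearest to a member, or one that spans it, may still be counted in a neighbouring band. Of all members, 16 lay in 12 bands with at most 3 protein-coding genes, and none of these bands held a wide region. In 3 bands there was 1 such gene. KYNU, which encodes an enzyme of tryptophan breakdown, is the only one in 2q22.2, with the member at chr2:142701508-142702008. PCDH9, a protocadherin gene, is the only one in 13q21.32, where the member at chr13:66616528-66617028 held a narrow region. LHFPL3, a membrane protein gene, is the only one in 7q22.2, with the member at chr7:104240068-104240568. Band 21q21.2 had a member and no protein-coding gene.

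The other bands of this kind were those of PCDH7 and LOC124900844 (4p15.1, 2 members), AUTS2, CALN1 and GALNT17 (7q11.22, 2), ARRDC4, MCTP2 and the nuclear receptor gene NR2F2 (15q26.2, 2), and COL22A1, FAM135B and KHDRBS3 (8q24.23, 2). With 1 member each followed those of the glypican genes GPC5 and GPC6 (13q31.3), of DIAPH3, PCDH20 and TDRD3 (13q21.2), of PLPP4, SEC23IP and WDR11 (10q26.12), and of ALG10 and SYT10 (12p11.1, whose length differs between the builds).

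At the other end, 6 bands held 4 or more members: 20q13.13 with 5, and 11q13.1, 3p24.1, 5q35.3, 8p12 and Xq21.1 with 4 each. The members of 3p24.1 lay at chr3:26601338-26601838, chr3:26806314-26806814, chr3:26908085-26908585 and chr3:27920985-27921485, with no wide region on the chromosome and no narrow region inside. The middle pair stood 101 kb apart, just beyond the limit for a group. In Xq21.1, the band of PGK1, a glycolytic enzyme gene, 2 of the 4 members held a narrow region.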

How the data were processed

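The authors deposited 2 lists of regions (narrow and broad), and per the file headers each row gives a region's identifier, chromosome and end positions in bp, other values being absent. Bowtie 0.12.9, HOMER 1.0 and hg19 appear, with no role, in the submitters' processing notes. Caller settings, filters and read numbers were not given in the sources used here, so depth is unknown. Whether positions count from 0 or 1 is not stated, and starts could differ by 1 bp.

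Distances were taken edge to edge on the same chromosome, overlap as at least 1 bp (bedtools 2.31.1 also gave 79 members), and groups by single linkage. Counting was tested on simulated data. Intervals cover counting error only, and the limit of a count of 0 used 3 counts. Bands of hg19 came from circlize 0.4.16. Protein-coding genes of a RefSeq table of GRCh38.p14 were placed in GRCh38 bands and joined by band name, with no coordinates converted. All symbols of the 12 lists were matched, 1 through an older symbol. Of 862 bands, 730 differ in length by at most 100 kb between builds. No sequence of the regions is shown, since no hg19 genome was used here. Computation used Python 3.11.15 (scipy 1.17.1, pandas 2.3.3, numpy 2.4.6, matplotlib 3.10.9).

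The members and lists were chosen with earlier results of these data known. Named genes were, by rule, all protein-coding genes of bands with a member and at most 3 such genes, SASP, NF-kB and RAS-ERK genes in bands with a member and no wide region, and list genes of the 5 bands with the most members (6 because of ties). A few genes that the rule names are not reported here. Other genes named in a band, and the use of runs, were added after seeing the data.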

Additional observations from a re-analysis of the deposited data

How the results depend on the processing

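Of the alternatives, 50% overlap, a distance of 1 kb or the first 1396 narrow regions gave 25.1 to 26.4% of members with a narrow region. Centre-to-centre distances, any broad neighbour and regions merged within 1 kb (305 members) changed no count by over 1.5 times, and with wide regions of at least 1000 bp the median distance was 34.7 Mb. By construction, the upper part of the broad list (to its middle place) held 129 members, 6 lay within 1 kb of another, 16.1% lay in the darkest class of bands alone, and 21.4% of SASP genes (12.7% of all protein-coding genes) lay in a band whose member held a narrow region. Without centromere, variable and stalk bands the densest chromosome was 15, at 0.208 per Mb, as fewer Mb are counted there. In bands of like length in both builds 49.0% of SASP genes were in a band with a member (36.0% of all protein-coding genes), and outside bands with a wide region 41.9% (34.8%), whereas as a share of the whole list the latter genes stand at 23.2%, below the 31.2% of all genes. Counting only whole runs, added after seeing the data, put 124 members before the middle of the list. No paired analysis was possible because the lists come from single libraries. With depth unknown, a missing region may only have missed the threshold.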

Other observations

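Each identifier in the broad list joins a chromosome name and a number. The highest numbers on the 23 chromosomes add up to 10314, of which the 364 deposited rows are 3.53%. Chromosome 21 had the highest number, 1196, and 5 broad regions, whereas chromosome 22 reached only 51 with 8 regions and chromosome 13 only 69 with 11. How the numbers were given is not stated in the sources used here.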
